A study of Mus musculus with 73 samples.

Results

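The expression of 10 immediate early and stress genes, Fos, Fosb, Jun, Junb, Jund, Atf3, Egr1, Zfp36, Ier2 and Dusp1, was examined in 73 single cells sorted as lung macrophages. The genes were chosen by name as a set, with earlier results of these data known, as were the other gene lists used further on. All 10 were found among the 23994 mouse gene rows of the expression table. The donor was 1 adult B6 mouse, aged 10 weeks and carrying the Csf1r-GFP reporter, whose left lung had been removed (pneumonectomy) 7 days earlier, and the cells came from its right lobes. They had been sorted for CD45, for the GFP reporter of Csf1r, a receptor gene of the macrophage lineage, and for F4/80, with Ly6G named in the labels without a sign, and were captured on a Fluidigm C1 microfluidic chip before amplification of polyadenylated RNA. All cells formed 1 group from 1 mouse, and an unoperated lung was not analysed here, so the values describe variation among cells and were not tested.

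Immediate early genes are transcribed within minutes of a stimulus, without new protein synthesis, when mitogen-activated protein kinases activate transcription factors that are already present. Fos and Jun proteins pair through leucine zippers to form AP-1, which in macrophages acts on cytokine, protease and survival genes. The same genes also respond to enzymatic digestion of tissue, sorting and other handling. Every cell here shared the mouse, the sort and the chip, so transcripts made in the lung and transcripts made during preparation cannot be told apart.

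The cells held 347004 to 3485957 mouse fragments each, with a median of 1408830, and 1044 to 3745 detected genes, where detected means at least 1 FPKM, a fragment count scaled by transcript length and by library. The CD45 gene Ptprc reached this level in 69 of 73 cells, Csf1r in 65, Emr1, which encodes F4/80, in 41 and the macrophage gene Lyz2 in 72. Endothelial markers were found in cells 2, 38 and 54, with 5, 3 and 6 of 8 markers at 10 FPKM or more. Vwf was at 0 in cell 2, and Kdr, Tek and Cldn5 were at 0 in cell 38, which only just met the limit of 3 markers. Their summed endothelial FPKM was 1791, 153 and 1042, against a median of 0 and a highest value of 773 in the other 70 cells. The main correlations are also given without them.

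Most of the 10 genes were transcribed in most cells, at levels that differed widely from cell to cell. Each was detected in more than 40 of the 73 cells, and a cell held a median of 8 of the 10 genes. Of all 23994 mouse gene rows, 1285 were detected in at least 37 cells. All 10 were detected in 15 cells, 7 or more in 62 cells and 5 or fewer in 5 cells. FPKM is scaled per length, so levels can be set against each other between genes. The gene with the highest FPKM in a cell was Fos in 27 cells, Zfp36 in 19 and Dusp1 in 16, so that 1 of these 3 led in 62 of 73 cells. Atf3, Egr1 and Ier2 led in 3 cells each, Jun and Junb in 1 each, and Fosb and Jund in none.

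**Figure D1:**
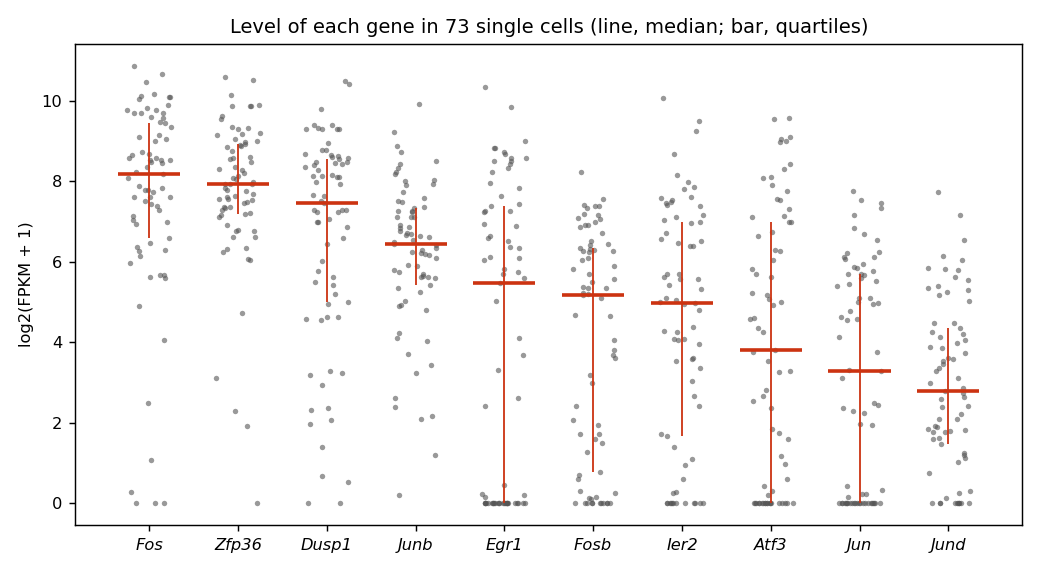
Level of each of the 10 genes in 73 single cells, as log2(FPKM + 1), with 1 point per cell, a line at the median and a bar over the quartiles. Fos, Zfp36 and Dusp1 have the highest medians, at 289, 244 and 175 FPKM, and Jund the lowest, at 5.88 FPKM.

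The promoters of Fos, Zfp36 and Dusp1 are shown because these 3 genes had the highest levels, and each carries a different arrangement of short motifs next to its start. The windows cover the 250 bases before the annotated start, read 5′ to 3′ on the gene's own strand, from RefSeq on GRCm38.p6. That of Fos is chr12:85473640-85473889 on the plus strand, that of Zfp36 chr7:28379229-28379478 on the minus strand and that of Dusp1 chr17:26508473-26508722 on the minus strand. The gene spans given further on are from GENCODE. For Zfp36 and Dusp1 these spans begin upstream of the windows, at 28380253 and 26562128, so the 2 annotations differ in the start. Capitals mark matches to the motifs searched on both strands.
Fos: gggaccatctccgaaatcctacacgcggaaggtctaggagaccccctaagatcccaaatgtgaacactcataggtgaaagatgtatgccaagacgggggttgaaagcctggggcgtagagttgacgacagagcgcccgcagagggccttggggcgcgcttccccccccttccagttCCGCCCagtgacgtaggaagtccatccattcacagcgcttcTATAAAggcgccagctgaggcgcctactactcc
Zfp36: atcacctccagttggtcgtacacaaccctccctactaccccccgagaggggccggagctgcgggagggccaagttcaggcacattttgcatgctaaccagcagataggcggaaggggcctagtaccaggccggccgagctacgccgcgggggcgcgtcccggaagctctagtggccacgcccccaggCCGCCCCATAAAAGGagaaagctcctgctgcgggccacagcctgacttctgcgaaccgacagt
Dusp1: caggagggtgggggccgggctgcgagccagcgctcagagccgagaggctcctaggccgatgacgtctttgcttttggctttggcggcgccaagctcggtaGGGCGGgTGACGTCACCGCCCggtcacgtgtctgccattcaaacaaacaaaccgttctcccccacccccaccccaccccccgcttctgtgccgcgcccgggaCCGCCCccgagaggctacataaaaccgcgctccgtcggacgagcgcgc
The Fos window held the TATA box TATAAA at position -33 from the start and a GC box, GGGCGG read on the other strand, at -74. The Zfp36 window held a CArG box, the element bound by serum response factor, at -58, which shares 1 base with the GC box at -63. The Dusp1 window held the cAMP response element TGACGTCA at -143, flanked by GC boxes at -150 and -135, the second of which adjoins it directly, and a further GC box at -48.

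In all, 8 of the 10 genes matched the promoter table, with Egr1 and Ier2 missing, and the windows searched ran from 250 bases before to 50 bases after the start. The cAMP response element was found in 1 of the 8, Dusp1, and in 1.79% of all 32851 windows. The CArG box was also found in 1, Zfp36, against 1.63% of all windows. The GC box was found in 6 of the 8, against 35.7% of all windows, the TATA box in Fos and Junb, against 13.6%, though in Junb the letters begin at position 1, on the annotated start, and the CCAAT box, searched as CCAAT, in Atf3, Jun and Junb, against 37.4%. The AP-1 site TGANTCA, in 7.81% of all windows, and the EGR site GCGTGGGCG, in 0.61%, were found in none of the 8 windows. These matches describe letters in a window and not bound sites.

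Among the Fos genes, Fos itself, the AP-1 subunit that cannot pair with itself, had the highest mean of the 10 genes. Its level ran from 0 to 1864 FPKM with a median of 289, and its mean of 423 ± 417 FPKM (SD over 73 cells) ranked 189th of all gene rows. Fos was detected in 69 cells (94.5%, exact Clopper-Pearson 95% interval 86.6 to 98.5) and reached 100 FPKM in 54. The highest value was in cell 63, and cells 41, 69, 70 and 85 lacked it, with 0 or 1 fragment each. A detected Fos level rested on a median of 1257 fragments. On mm10 Fos lies on chromosome 12 from 85473890 to 85477273 on the plus strand.

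Fosb, a second Fos family subunit on chromosome 7 (19302696 to 19310051, minus strand), was lower. It ran from 0 to 301 FPKM with a median of 34.9 and a mean of 51.9 ± 61.7 FPKM (SD over 73 cells). It was detected in 54 cells, and Fos exceeded it in 65 of 73 cells. The lower quartile was 94.7 FPKM for Fos and 0.719 FPKM for Fosb, so both genes were near 0 in some cells and Fosb in many.

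The Jun genes encode the partners of Fos proteins, which can also pair with each other. Junb, on chromosome 8 (84974484 to 84978718, minus strand), ran from 0.158 to 971 FPKM with a median of 85.8 and a mean of 132 ± 154 FPKM (SD over 73 cells). It was detected in 72 of 73 cells and was the Jun gene with the highest FPKM in 55 of them. Jun, on chromosome 4 (95049034 to 95052222, minus strand), ran from 0 to 213 FPKM with a median of 8.69 and a mean of 33.2 ± 48.3 FPKM. It was listed at 0 in 23 cells and detected in 45, and it was the leading Jun gene in 14 cells. Jund, on chromosome 8 (70698949 to 70700616, plus strand) and generally less dependent on stimulation than Jun and Junb, ran from 0 to 213 FPKM with a median of 5.88 and a mean of 19.1 ± 33.7 FPKM. It was found in more cells than Jun, 59, but at a low level, with a median of 63 fragments behind each detected value. The summed FPKM of Fos and Fosb exceeded that of the 3 Jun genes in 56 of 73 cells, with medians of 335 and 142 FPKM.

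Atf3, a stress-induced bZIP factor that can pair with Jun proteins, and Egr1, a zinc finger factor of the serum response, were listed at 0 in many cells and high in others. Atf3, on chromosome 1 (191170296 to 191218039, minus strand), ran from 0 to 765 FPKM with a median of 12.9 and a mean of 98.9 ± 175 FPKM (SD over 73 cells), and was detected in 49 cells. The highest Atf3 value was in cell 38, with endothelial markers, and the next, 743 FPKM, in cell 43. Egr1, on chromosome 18 (34859823 to 34864984, plus strand), ran from 0 to 1294 FPKM with a median of 43.3 and a mean of 131 ± 221 FPKM. It was listed at 0 in 26 cells and detected in 43 (58.9%, 46.8 to 70.3), the fewest of the set, and yet reached 100 FPKM in 24. Where Egr1 was detected its median was 149 FPKM, on a median of 892 fragments.

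Ier2, a nuclear protein induced by growth factors, resembled Atf3 in its spread. It lies on chromosome 8 (84661331 to 84662852, minus strand), ran from 0 to 1064 FPKM with a median of 30.3 and a mean of 95.1 ± 173 FPKM (SD over 73 cells), and was detected in 57 cells. The 5 cells with the most Ier2 held 44.5% of its summed FPKM, the largest such share among the 10 genes, against 23.2% for Fos, the smallest.

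The negative regulators were among the most widespread. Zfp36 encodes tristetraprolin, which binds AU-rich elements and speeds the decay of cytokine mRNAs, and Dusp1 encodes a phosphatase that inactivates p38 and JNK kinases. Zfp36, on chromosome 7 (28376784 to 28380253, minus strand), ran from 0 to 1549 FPKM with a median of 244 and a mean of 354 ± 323 FPKM (SD over 73 cells), and was detected in 72 cells. Dusp1, on chromosome 17 (26505590 to 26562128, minus strand), ran from 0 to 1440 FPKM with a median of 175 and a mean of 258 ± 288 FPKM, and was detected in 69 cells. Only cell 85 had no detected Zfp36, and it also lacked Dusp1.

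Neighbours in the order of the means, from Fos through Zfp36, Dusp1, Junb, Egr1, Atf3, Ier2, Fosb and Jun to Jund, differed by less than the SD over cells of either gene. Set against genes of like mean, the 10 genes were not among the most variable. Their squared coefficient of variation, after a fit on mean level, lay at the 36th percentile of 6151 genes for Egr1, the highest of the set, and at the 2.55th for Fosb, the lowest.

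The mean of log2(FPKM + 1) over the 10 genes, called the set level here, summarised each cell. It ran from 0.97 to 8.0 with a median of 5.15, quartiles of 4.11 and 5.99 and an SD of 1.34. Without the 3 cells with endothelial markers the SD was 1.29. Cell 85 was the lowest, with 2432 detected genes and 1278616 mouse fragments, against medians of 2290 and 1408830. Its Actb, at 8255 FPKM, was below the median of 10170 FPKM. Its mean log2(FPKM + 1) over the housekeeping list, which includes Actb, was 6.89, above the median of 6.60. Its summed mouse FPKM, 238379, was below the lower quartile of 382828, and the part of this in its set level was not tested. Cell 85 was listed at 0 for Fos, Atf3, Egr1, Zfp36, Ier2 and Dusp1 and held 29.99 FPKM of Jun. Cells 18 and 69 followed at 2.01 and 2.44, and cell 18 also had the fewest detected genes of all cells, 1044. The highest set levels were in cell 2, at 8.0, cell 43, at 7.92, and cell 63, at 7.41. Cell 2 is 1 of the 3 with endothelial markers, with 5 of 8 at 10 FPKM or more and Vwf at 0, and the part of this in its set level was not tested.

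**Figure D2:**
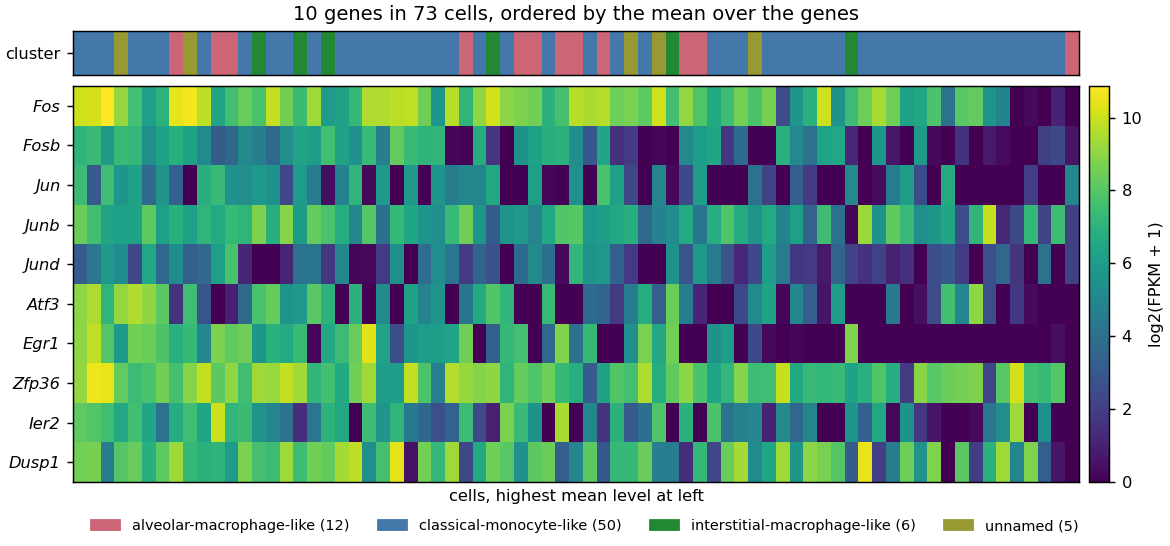
Levels of the 10 genes (rows) in 73 cells (columns) as log2(FPKM + 1), with cells ordered from the highest set level at left to the lowest at right and the strip above giving each cell's cluster. Fos and Zfp36 are high across nearly all cells, while Egr1 is bright at left and dark in most cells at right. Each gene is part of the set level that orders the cells, so some fall from left to right is built in.

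Across cells the 10 genes were only weakly coordinated. Spearman correlations over the 73 cells, which share mouse, chip and library chemistry and differ in depth, were above 0 for 39 of the 45 gene pairs and had a median of 0.13, with quartiles of 0.03 and 0.21. The median was 0.04 over all pairs of genes detected in at least 8 cells and 0.06 over pairs of genes detected in at least 37 cells, of which 66.3% were above 0. Correlations of 0.3 or more were reached by 2 of the 45 pairs, against 1.9% and 3.64% of all pairs in those same gene sets, so the share was close to that of other well detected genes. Without the 3 cells with endothelial markers the median was 0.11, and again 2 pairs reached 0.3.

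The pair with the highest correlation was Egr1 and Ier2, at 0.48, and at 0.46 without the 3 cells with endothelial markers. Ier2 had a median of 83.2 FPKM in the 43 cells with detected Egr1 and of 6.81 FPKM in the 30 cells without it. Atf3 and Zfp36 followed at 0.32, and at 0.31 without those cells, with a median Zfp36 level of 293 FPKM in the 49 cells with detected Atf3 and of 174 FPKM in the 24 without. Next came Fosb with Jund at 0.29, Jun with Atf3 at 0.26 and Atf3 with Egr1 at 0.26. Every cell with detected Egr1 also had detected Fos, 43 of 43, but Fos was detected in 94.5% of all cells. Only 4 cells lacked Fos, so this count says little about the pair. A further 26 cells had Fos without Egr1, and the 2 genes correlated at 0.24. The AP-1 partners Fos and Jun correlated at only 0.19, and Fos and Junb at 0.19.

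**Figure D3:**
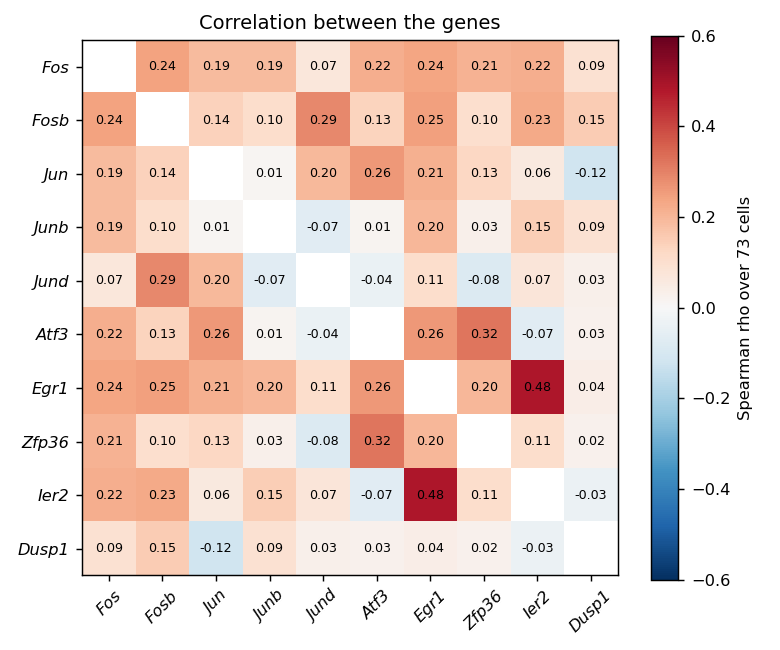
Spearman correlation over 73 cells for each pair of the 10 genes, printed in each square and coloured on a scale from -0.6 to 0.6. Egr1 with Ier2 stands out at 0.48, and the row of Dusp1 lies near 0, with its lowest value of -0.12 for Jun.

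Each gene was also set against the mean log2(FPKM + 1) of the other 9. Egr1 followed the others most closely, at a correlation of 0.52, ahead of Fos at 0.40, Fosb at 0.37, Jun at 0.29, Ier2 at 0.28, Atf3 at 0.25 and Zfp36 at 0.24. Junb, at 0.19, and Jund, at 0.15, were lower, and Dusp1 was lowest at 0.07. Values this weak are no finding in sparse single-cell data, and they are given as a description of these cells.

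Within the largest cluster of cells, described further on, more pairs reached 0.3, while the median changed little. The median over the 45 pairs was 0.14 there, beside 0.13 over all 73 cells. Among the 50 cells of this cluster, 8 of 45 pairs (17.8%) reached 0.3, against 5.93% of all pairs of genes detected in at least 37 cells. Over all 73 cells that share of all pairs was lower, at 3.64%. Without the 3 cells with endothelial markers, all of which fell in this cluster, the count was again 8, against 5.53%, while the median over the 45 pairs was 0.11, against 0.14 with them. Egr1 was part of 5 of the 8 pairs among the 50 cells, with Ier2 at 0.42, Fos, Atf3 and Fosb at 0.40 each, and Jun at 0.37. The other 3 were Jun with Atf3 at 0.42, Fos with Junb at 0.32 and Fosb with Jund at 0.32.

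The set level had little relation to measures of depth and RNA content. Its correlation over the 73 cells was 0.18 with the number of detected genes, where the median over 1285 single genes was 0.18, and -0.05 with mouse fragments, where that median was 0.17. With mouse fragments per spike-in fragment it was 0.03, and with the summed mouse FPKM 0.11. With recovered fragments, which are scaled neither per cell nor per length, the correlation with detected genes was 0.35.

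Genes of other stress programmes had lower correlations with the set. The heat shock list correlated with the set level at 0.09 and the housekeeping list at 0.01. Hspa8, the constitutive heat shock protein, was detected in all 73 cells at a mean of 1506 ± 1173 FPKM (SD), and Hsp90ab1, a cytosolic chaperone, in 68 at 368 ± 339 FPKM. The stress-inducible genes Hspa1a, Hspa1b and Hspb1 were detected in 4, 7 and 1 cells, the fewest of the list. Its other genes were detected in more, with Hsp90aa1 in 55, Dnaja1 in 53, Hspe1 in 39, Hspd1 in 22, and Dnajb1 and Hsph1 in 13 each. These genes were named here after their values were seen. The integrated stress and unfolded protein list, led by the chaperone Hspa5 at 194 ± 221 FPKM and the translation-controlled factor Atf4 at 158 ± 233 FPKM, correlated at 0.20. The list of kinases and serum response inputs correlated at 0.22. Of its 14 genes detected in at least 8 cells, 0 reached 0.3, against 1.03% of all genes so detected. With 14 genes, that count cannot be told apart from the share over all genes. The heat shock, integrated stress and housekeeping lists also had 0 such genes.

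The list of other AP-1 genes correlated at 0.22. Fosl2, a further Fos family subunit, had a mean of 58.5 ± 82.8 FPKM (SD over 73 cells) and correlated with the set level at -0.06. The other Zfp36 family and dual-specificity phosphatase genes correlated at 0.16 as a list, with Dusp3 at 95.9 ± 125 FPKM, Zfp36l2 at 77.8 ± 88.9 FPKM and Zfp36l1 at 69.8 ± 104 FPKM.

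The other immediate early genes and the inflammatory mRNAs known as tristetraprolin targets had the highest list correlations. Their list levels correlated with the set level at 0.61 and 0.59, and at 0.68 and 0.67 within the largest cluster. Without the 3 cells with endothelial markers they correlated at 0.58 and 0.65. Of the 21 other immediate early genes detected in at least 8 cells, 4 correlated with the set level at 0.3 or more, against 1.03% of all genes so detected, and their median was 0.23 beside 0.03. These were Nfkbiz at 0.57 (0.54 without those cells), the vascular and leukocyte factor Klf2 at 0.39, Csrnp1 at 0.37 and Ppp1r15a, a regulatory subunit that reverses translation arrest, at 0.32. The most abundant genes of that list did less, with Nfkbia, the NF-κB inhibitor, at 0.28, Ier3 at 0.26, Btg2 at 0.17 and Btg1 at -0.08. Of the 9 tristetraprolin targets so detected, 5 reached 0.3, namely Cxcl2 at 0.51, Cxcl1 at 0.43, Tnf at 0.40, Ccl2 at 0.39 and Ccl3 at 0.33. Il1b, the most abundant, with a mean of 1277 ± 1426 FPKM, correlated at 0.28.

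Some of the same genes were among the highest in a search over all genes, which used the same correlations and so is no separate support. Among 1275 genes detected in at least 37 cells, 15 (1.18%) correlated with the set level at 0.3 or more. The 10 highest were Nfkbiz, Cxcl2, Cxcl1, Atp1b3, Tnf, Wnk1, Ccl2, Hmgn2, Luc7l2 and Atp6v1e1, from 0.57 down to 0.33. Of these, Atp1b3, Wnk1, Hmgn2, Luc7l2 and Atp6v1e1 were on none of the functional lists. Nfkbiz, an inducible nuclear regulator of NF-κB, had 0 to 637 FPKM with a median of 37.3 and was detected in 57 cells. Cxcl2, a neutrophil-attracting chemokine, had a median of 1021 and a highest value of 8203 FPKM, found in cell 43, which also had the most Zfp36. Cell 85, lowest for the set, was listed at 0 for both. Other extreme cells went the other way, since cell 2, highest for the set, held 3.28 FPKM of Cxcl2, and cell 18, second lowest, held 752 FPKM.

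**Figure D4:**
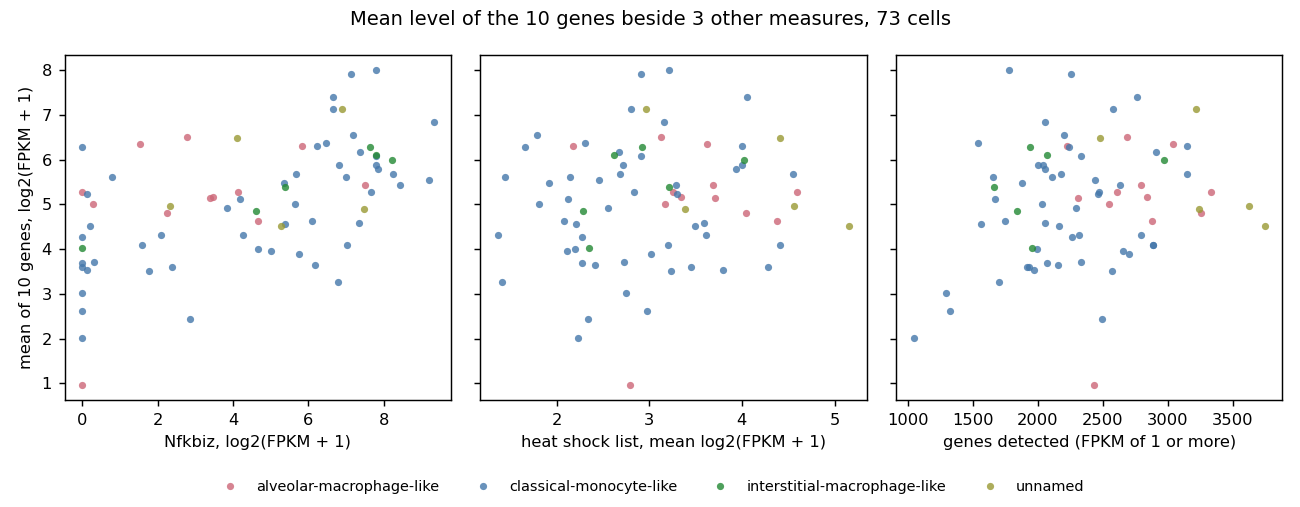
Set level of the 10 genes, as mean log2(FPKM + 1), against Nfkbiz as log2(FPKM + 1), the mean of the heat shock list as log2(FPKM + 1) and the number of detected genes, with 1 point per cell coloured by cluster. The level climbs with Nfkbiz at a Spearman correlation of 0.57 over 73 cells and shows little relation to the heat shock list, at 0.09, or to detected genes, at 0.18.

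Single genes had different nearest neighbours by the same measure, searched among the genes outside the set. Within the set, the correlation of Egr1 with Ier2, at 0.48, was higher than that of either with any gene outside it detected in at least 37 cells. Atf3 was most like the chemokine gene Ccl9, at 0.53, with Ccl2 next at 0.50. Egr1 was most like Cxcl1 at 0.45, Zfp36 like Cxcl2 at 0.38 and Ier2 like Tnf at 0.40, all inflammatory mRNAs. Fos was most like Eif1a at 0.40, Fosb like Luc7l2 at 0.46, Jun like Pltp at 0.42, Junb like Atp1b3 at 0.41, Jund like Cox4i1 at 0.40 and Dusp1 like Mndal at 0.35.

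Clustering without the 10 genes and the other functional lists gave 4 clusters. The alveolar-macrophage-like cluster held 12 cells, led by Ear2, Plet1, Atp6v0d2, Car4, Chil3 and Ear1, and the classical-monocyte-like cluster held 50, led by Ifitm3, Plac8, Ly6c2, S100a4, Hp and Ccr2. An interstitial-macrophage-like cluster of 6 cells was led by C1qb, C1qa, C1qc, Ms4a7 and Apoe, and also by Pf4, a gene on the platelet list. An unnamed cluster of 5 cells was led by H2-Aa and Stmn1. With 500 or 2000 variable genes there were 2 clusters, of the same 12 cells and of the other 61.

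The set level differed between these clusters by less than its SD over cells. Some single genes differed by more in mean log2(FPKM + 1), but they also had larger SDs. The set level averaged 5.08 ± 1.43 (SD) in the 12 alveolar-macrophage-like cells and 4.94 ± 1.39 in the 50 classical-monocyte-like cells, a difference of 0.13, and 5.44 ± 0.88 and 5.60 ± 1.14 in the interstitial-macrophage-like and unnamed cells. Between the first 2 clusters, 4 of the 10 genes differed by 1 or more in mean log2(FPKM + 1), against 28.3% of 6151 genes. Of the 4, 2 were higher in the alveolar-macrophage-like cells, against 19.2% of all genes, and 2 were lower, against 9.12%. With 10 genes, these counts cannot be told apart from the shares over all genes. Cells of 1 mouse are not replicates, and these differences carry no test. The ranges of the clusters overlapped for all 10 genes. Of the 4 genes, Jun, Jund and Dusp1 differed by less than their SD over cells in either of these 2 clusters. The Atf3 difference of -2.68 was larger in size than its SD of 1.77 in the alveolar-macrophage-like cells. It was smaller than the SD of 3.33 in the classical-monocyte-like cells.

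**Figure D5:**
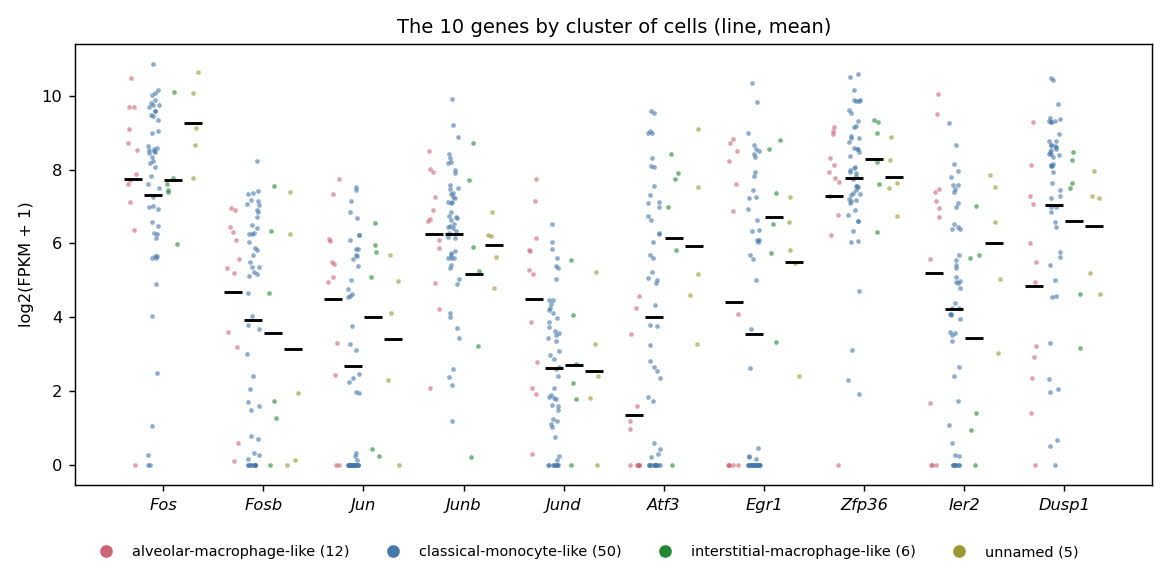
Levels of the 10 genes as log2(FPKM + 1) in each of 4 clusters of cells, with 1 point per cell and a line at the mean. Atf3 and Dusp1 lie lower in the 12 alveolar-macrophage-like cells than in the 50 classical-monocyte-like cells, by 2.68 and 2.21 in the mean, and Jun and Jund lie higher, by 1.83 and 1.88.

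Atf3 and Dusp1 were lower in the alveolar-macrophage-like cells. Atf3 ran from 0 to 22.7 FPKM with a median of 0.481 in these 12 cells, and from 0 to 765 FPKM with a median of 16.1 in the 50 classical-monocyte-like cells. It was detected in 5 of 12 and 34 of 50 cells, and the difference in mean log2(FPKM + 1) was -2.68, and -2.54 without the cells with endothelial markers. Among the interstitial-macrophage-like cells it averaged 163 ± 127 FPKM (SD over 6 cells). Dusp1 had a median of 36.96 FPKM (range 0 to 627) in the alveolar-macrophage-like and 276 FPKM (range 0 to 1440) in the classical-monocyte-like cells, a difference of -2.21, although it was detected in 11 of 12 and 47 of 50 cells.

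Jun and Jund were higher in the alveolar-macrophage-like cells. Jun had a median of 37.6 FPKM (range 0 to 213) and was detected in 10 of these 12 cells, against a median of 3.32 FPKM (range 0 to 184) and detection in 27 of the 50 classical-monocyte-like cells, a difference of 1.83. Jund had medians of 36.4 FPKM (range 0.220 to 213) and 5.14 FPKM (range 0 to 91.4) in these same clusters, a difference of 1.88. Both differences, and those of Atf3 and Dusp1, were also 1 or more in size in each of 5 alternative settings that kept these clusters, and when the 12 cells were set against the other 61.

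The remaining genes differed by less than 1 between the 2 clusters. The differences were 0.42 for Fos, 0.76 for Fosb, 0.00 for Junb, 0.86 for Egr1, -0.51 for Zfp36 and 0.99 for Ier2. The median difference over the 10 genes was 0.59, against 0.13 over all 6151 genes, and with each cell rescaled to one mouse total these were 0.48 and 0.11. Other measures moved between the clusters as well. The alveolar-macrophage-like and classical-monocyte-like cells had medians of 2739.5 and 2168.5 detected genes, 1057392.5 and 1392943 mouse fragments, 7.26 and 6.51 for the housekeeping list and 3.48 and 2.74 for the heat shock list, and their part in the differences was not tested.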

How the data were processed

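Single-cell cDNA from 73 cells was sequenced, per the labels' protocols. The submitters' processing notes name Cuffnorm, Cufflinks 2.2.1, TopHat2 2.1.0, CASAVA 1.8 and the build mm10. Annotation, normalization setting and cell filters are not given in the sources used here. Deposited by the authors were a table of FPKM and a count table whose values are a signal, fragments divided by a factor per cell. Fragments were recovered by dividing by each cell's most frequent value, and 99.6% of 100020 values between 0.5 and 20 such steps lay within 0.1 of a whole number. The 100 spike-in rows were set aside.

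The 10 genes and the companion lists were chosen with earlier results of these data known. Named genes were the 10 genes, up to 4 most abundant genes of each list, the 10 genes most correlated with the set level, the most alike gene outside the set for each of the 10, and those said to be chosen after their values were seen, which include the list genes at a correlation of 0.3 or more, and the sort, lineage and cluster genes. Levels used log2(FPKM + 1). Clusters came from Ward clustering of 10 principal components of 1000 variable genes detected in at least 8 cells, divided into 2 to 6 clusters by the highest silhouette (0.254) with at least 5 cells each. No doublet caller was run, because capture sites are meant to hold 1 cell. Gene coordinates are from GENCODE on GRCm38, the mm10 assembly, and promoter windows are from RefSeq. With 1 group and 1 mouse there is no test, and intervals cover counting error only. The correlation and difference steps were tested on simulated data. Alternatives were the count table, rescaling, thinning to 347003 mouse fragments, other pseudocounts and correlation measures, other clusterings and leaving out cells with endothelial markers. Analyses used Python 3.11.15 with numpy 2.4.6, pandas 2.3.3, scipy 1.17.1 and scikit-learn 1.9.0.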

Additional observations from a re-analysis of the deposited data

How the results depend on the processing

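The number of gene pairs correlated at 0.3 or more depended on the table and on the cells. It was 2 of 45 over all cells, 7 with fragments from the count table, where 13.8% of all gene pairs reached 0.3, 8 in the largest cluster only, and 8 in that cluster without the cells with endothelial markers, a setting chosen after seeing the data. The correlation of the set level with detected genes was 0.18, and 0.35 with those fragments. The share of all gene pairs at 0.3 or more was 1.9% for genes detected in at least 8 cells and 3.64% for those detected in at least 37. The causes were not tested. The median pair correlation was 0.11 to 0.17 over 10 alternatives, the SD of the set level 1.29 to 1.79 over 5, and the difference in set level between the 2 largest clusters -0.09 to 0.22. A total of 3 of the settings for that difference gave the same division into 12 and 61 cells and the same values, and so compare the alveolar-macrophage-like cells with all others. Between 8 and 10 of the genes were detected in at least 37 cells over 6 alternatives, beside 1285 of all 23994 mouse gene rows in the main setting. Jun, Jund, Atf3 and Dusp1 differed by 1 or more between the alveolar-macrophage-like and classical-monocyte-like cells in each of the other 5 settings, and also in that division. Egr1 and Ier2 did so in 2 of the 5 and Fosb in 1.

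No paired analysis was possible because all cells belong to 1 group. With 1 mouse, variation between animals is unknown, and transcripts listed at 0 cannot be told apart from transcripts missed in capture or amplification. The deposited values hold no time axis, so levels cannot be placed before or after sorting.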

Other observations

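The column headers carry a letter from A to H whose meaning the labels do not state. The median set level of the 10 genes ran from 4.42 in the 10 cells with the letter E to 6.07 in the 9 cells with the letter F. The ranges overlapped, at 3.27 to 5.44 for E and 4.81 to 7.14 for F. No test was made, because the letters are not a labelled batch.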
